A study of Mus musculus with 6 samples.

Results

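The glutathione peroxidases examined here are 6 mouse genes, Gpx1, Gpx2, Gpx3, Gpx4, Gpx7 and Gpx8, taken by Entrez gene number from a table of 24454 genes measured by RNA sequencing of MTflEcad breast cancer cells. The cells come from a tumour of the mammary gland and carry the strain label MMTV-Neu, a mouse model in which a viral promoter drives the Neu (Erbb2) oncogene in mammary epithelium. The group PBS, labelled as given PBS and 0 µM H2O2, is called untreated in the protocol. The line I80 received 80 µM and the line DI150 received 150 µM H2O2, every day over 7 months. Each group has 2 libraries from biological duplicates, and whether these were grown as separate cultures throughout is not stated. Each dose is 1 line, so an effect of dose and a property of that line cannot be told apart. The p-values below therefore measure the spread between these libraries.

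Glutathione peroxidases reduce H2O2 and organic hydroperoxides with electrons from glutathione, which glutathione reductase then regenerates with NADPH. Gpx1 is the widely expressed cytosolic and mitochondrial enzyme, Gpx2 is best known from the gut epithelium, Gpx3 is secreted into plasma, and Gpx4 reduces lipid hydroperoxides inside membranes and restrains ferroptosis. These 4 are selenoenzymes, in which a UGA codon in the mRNA is read as selenocysteine instead of stop. Gpx7 and Gpx8 have a cysteine at that place and act in the endoplasmic reticulum, where disulfide bond formation generates H2O2. In mammary cells the family stands beside catalase and the peroxiredoxins as a route for removing peroxide.

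The catalytic codon shows this division in the coding sequence. The stretches below are 45 bases of the GENCODE M21 coding sequence (GRCm38, the build also called mm10), written 5′ to 3′ along the mRNA with the catalytic codon in capitals. They are shown because this codon separates the selenoenzymes from the cysteine enzymes, and the 3 genes that rose in both treated lines include both kinds.
Gpx1, plus strand, chr9:108339430-108339474: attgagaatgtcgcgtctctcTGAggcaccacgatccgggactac
Gpx2, minus strand, chr12:76795235-76795279: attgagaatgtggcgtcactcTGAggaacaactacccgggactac
Gpx3, plus strand, chr11:54907235-54907279: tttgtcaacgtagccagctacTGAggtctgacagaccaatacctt
Gpx4, plus strand, chr10:80054716-80054760: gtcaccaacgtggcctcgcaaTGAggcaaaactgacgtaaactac
Gpx7, minus strand, chr4:108403409-108403453: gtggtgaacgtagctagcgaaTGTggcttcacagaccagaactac
Gpx8, minus strand, chr13:113045640-113045684: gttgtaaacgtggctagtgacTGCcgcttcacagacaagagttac
Each stretch lies within 1 exon, which is exon 1 in Gpx1 and Gpx2, exon 2 in Gpx3, Gpx7 and Gpx8, and exon 3 in the Gpx4 transcript used. An in-frame TGA stands at codon 47 of Gpx1, 40 of Gpx2, 73 of Gpx3 and 73 of Gpx4, and each is annotated as selenocysteine. The aligned codons are TGT at codon 56 of Gpx7 and TGC at codon 79 of Gpx8, and both encode cysteine. Over the aligned part of the encoded proteins, Gpx1 and Gpx2 share 63.2% of their residues, the highest of the pairs, and Gpx1 and Gpx8 share 30.2%, the lowest.

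Total reads assigned to genes ran from 21017849 to 26608715 per library, and 3 reads, taken as the floor of detection, equal 0.113 to 0.143 CPM (reads of a gene per 1000000 assigned reads). All 6 epithelial markers checked (Epcam, Cdh1, Krt8, Krt18, Krt7 and Cldn3) had reads, summing to 9228 to 9584 CPM in PBS, 3546 to 3548 CPM in I80 and 3348 to 3691 CPM in DI150. Krt7, Krt8 and Krt18 carried the lower sums for the most part. Cdh1 was also lower, at 579 and 669 CPM in PBS, 400 and 405 CPM in I80 and 388 and 374 CPM in DI150. Epcam, in contrast, was at 583 and 629 CPM in PBS and 1109 and 1002 CPM in DI150. Of 5 myoepithelial markers, Krt14 held nearly all the signal in PBS, where the list summed to 1676 to 1729 CPM against 0.238 to 1.73 CPM in the treated lines. Fibroblast markers summed to 21.8 to 23.99 CPM across all libraries, with Pdgfrb at 0 and members that moved in opposite directions. Col1a2 was at 15.3 CPM in both PBS libraries and 0 in the treated lines, while Pdgfra was at 5.04 and 5.50 CPM in PBS and 14.5 to 18.98 CPM in the treated lines. The leukocyte list summed to 7.93 to 14.8 CPM in PBS, nearly all of it from Csf1r, and to 0.078 to 0.381 CPM in the treated lines, where Csf1r was at 0. Adgre1 and Cd3e were at 0 in every library. Endothelial markers summed to at most 0.742 CPM, with Kdr and Emcn at 0. Adipocyte markers summed to at most 0.162 CPM, with Adipoq, Cidec and Lep at 0. The part of these keratin, Cdh1, Epcam, Krt14, Col1a2, Pdgfra and Csf1r shifts in the results below was not tested. In bulk RNA, fewer cells of a kind and less RNA per cell cannot be told apart.

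Of the 6 genes, Gpx1, Gpx2, Gpx4 and Gpx8 reached the minimum for testing, a mean level of 1 CPM across all libraries. Gpx3 and Gpx7 were below that level and were not. In I80, 3 of the 4 tested genes (Gpx1, Gpx2 and Gpx8) were higher than in PBS at a limma adjusted p under 0.05, and Gpx4 did not pass. In DI150, all 4 tested genes were higher than in PBS. No tested member was lower in any comparison by limma (0 also at an unadjusted p under 0.05), and edgeR and DESeq2 on recovered reads also called 0. Among all 11428 tested genes, 66.4% were called in I80 against PBS (32.3% higher and 34.2% lower) and 68.7% in DI150 against PBS (32.7% higher and 36.1% lower), so calls were common in both comparisons. The mean level of Gpx2 across all libraries came almost wholly from the treated lines, though its PBS mean of 1.16 CPM also reached the minimum. The counts over 4 genes are a description of them.

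**Figure D1:**
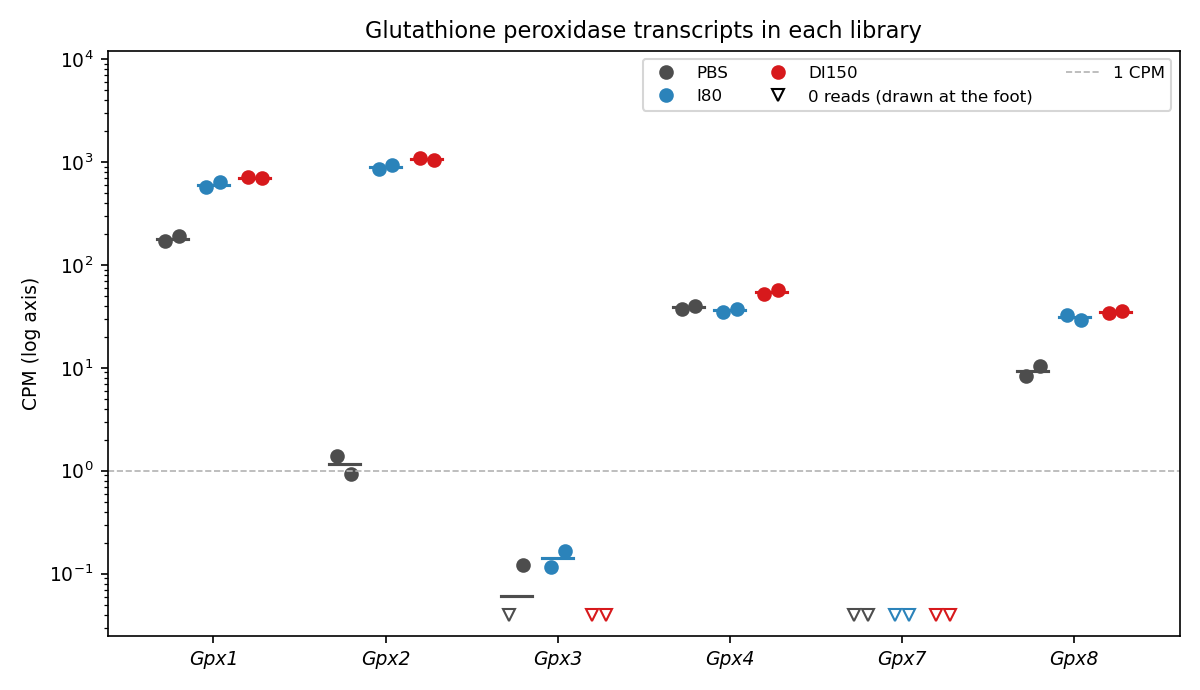
CPM of the 6 glutathione peroxidase genes in each library on a log axis, with horizontal bars at group means and open triangles for libraries with 0 reads. Gpx2 moves from about the 1 CPM line in PBS to above Gpx1 in both treated lines, while Gpx3 and Gpx7 stay at or near 0 reads in all 6 libraries.

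Gpx2 (gene 14776, chromosome 12 at 76792335 to 76795554, minus strand) had the largest difference in the family. It stood at 1.39 and 0.930 CPM in the PBS libraries, which is 37 and 23 reads. It was at 856 and 934 CPM in I80, and at 1091 and 1039.6 CPM in DI150. All 4 treated libraries lay far above both PBS libraries. Mean CPM was 771 times the PBS mean in I80 and 918 times in DI150, ratios that rest on the few reads in PBS. In I80 the log2 fold change on the log2(CPM + 0.5) scale, which understates such ratios, was 9.09 ± 0.13 SE, with a 95% interval of 8.80 to 9.38 (limma adjusted p = 2.68e-08). The same value in DI150 was 9.34, with an interval of 9.05 to 9.63 (limma adjusted p = 1.32e-08). On that scale Gpx2 ranked 1 of 11428 tested genes for the rise in I80 and 2 of 11428 in DI150.

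The DI150 libraries were both above the I80 libraries for Gpx2. The log2 difference between the treated lines was 0.25, with a 95% interval of -0.04 to 0.54 (limma adjusted p = 0.141). Adjusted p for this difference was 0.0346 in a limma fit of the 4 treated libraries alone and 0.0118 with DESeq2 on recovered reads. Leaving out either PBS library also took it below the threshold (limma adjusted p = 0.0248 in both fits), where these libraries enter through the shared variance. Over all 16 alternatives the adjusted p ran from 0.0118 to 0.455.

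Gpx2 has a pseudogene, Gpx2-ps1 (gene 14777, chromosome 7 at 100264544 to 100265561), whose counts moved with it. Gpx2-ps1 had 0 and 1 reads in PBS, 323 and 321 reads in I80 and 321 and 390 reads in DI150. Its reads amounted to 1.40% to 1.47% of those of Gpx2 in each treated library. Whether they come from Gpx2 transcripts was not tested, so the whole Gpx2-ps1 level is uncertain. Adding them to Gpx2 would raise its level in the treated lines by at most that share. Any reads dropped for matching both genes are not in that share, and the handling of such reads is not given.

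The 250 bases before the RefSeq start site of Gpx2 (GRCm38.p6, minus strand, chr12:76795555-76795804) are printed beside those of Gpx1 (plus strand, chr9:108338830-108339079), because these are the family's most abundant transcripts in the treated lines while their levels in PBS were far apart. CG dinucleotides, the sites of DNA methylation, are in capitals.
Gpx2: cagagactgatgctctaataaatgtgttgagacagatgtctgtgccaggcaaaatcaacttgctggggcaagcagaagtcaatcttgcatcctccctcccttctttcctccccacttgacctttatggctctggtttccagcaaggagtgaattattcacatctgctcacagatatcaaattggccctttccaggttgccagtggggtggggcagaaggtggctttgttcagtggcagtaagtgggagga
Gpx1: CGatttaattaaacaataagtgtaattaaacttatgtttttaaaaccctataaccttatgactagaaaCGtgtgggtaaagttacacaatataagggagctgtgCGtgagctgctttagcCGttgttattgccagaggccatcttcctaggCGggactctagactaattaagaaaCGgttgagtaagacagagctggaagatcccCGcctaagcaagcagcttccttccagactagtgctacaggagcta
The Gpx2 stretch holds 0 CG dinucleotides and the Gpx1 stretch holds 7. Of 32851 RefSeq promoters of the same length, 7.87% hold none and the median is 6. DNA methylation was not analysed here. The other member promoters hold 10 CG dinucleotides in Gpx8, 11 in Gpx3, 16 in Gpx7 and 2 to 24 at the 4 listed starts of Gpx4. Across the 9 member promoters, no match was found on either strand to the antioxidant response element core TGACNNNGC, to the TPA response element TGANTCA, to the TATA box TATAAA or to the TCF/LEF site CTTTGAT. Among all promoters 10.2%, 6.75%, 12.4% and 3.21% hold these letters, and matches to the core and to the TPA element can overlap. The absence of a match covers this window alone.

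Gpx1 (gene 14775, chromosome 9 at 108339080 to 108340342, plus strand) was the most abundant member in PBS. Its level was 169 and 189 CPM in PBS, 566 and 636 CPM in I80, and 712 and 690.1 CPM in DI150. Every treated library lay above both PBS libraries. The rise was 3.35-fold in I80 (1.74 ± 0.08 SE on the log2 scale, limma adjusted p = 1.66e-06) and 3.91-fold in DI150 (1.97 ± 0.08 SE, limma adjusted p = 8.33e-07). Between the treated lines the groups did not overlap, with a log2 difference of 0.22 and a 95% interval of 0.03 to 0.42. This did not pass after adjustment (limma adjusted p = 0.0657), though DESeq2 gave an adjusted p of 0.0325, and the adjusted p ran up to 0.386 over the alternatives.

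Gpx4 (gene 625249, chromosome 10 at 80047166 to 80056439, plus strand) was called in the comparisons that include DI150 and not in I80 against PBS. It stood at 36.9 and 40.2 CPM in PBS, 34.8 and 37.2 CPM in I80, and 52.2 and 56.8 CPM in DI150. PBS and I80 overlapped, and both DI150 libraries were above the other 4. In I80 the log2 difference from PBS was -0.10, with a 95% interval of -0.30 to 0.11 (limma adjusted p = 0.363), an interval that does not reach the rise of Gpx1 or Gpx8. DI150 was 1.41-fold above PBS (0.49 ± 0.09 SE on the log2 scale, limma adjusted p = 0.00159) and 1.51-fold above I80 (0.59 ± 0.09 SE, limma adjusted p = 0.00174). In the limma fit of all 6 libraries it was the 1 member of the 4 tested that was called between the treated lines, against 43.8% of all tested genes called in DI150 against I80 (21.9% higher and 21.9% lower). For each of the 4 genes, both DI150 libraries lay above both I80 libraries, though Gpx1, Gpx2 and Gpx8 were not called in that fit. How many of all tested genes separate in this way was not counted, so this describes these genes alone. RefSeq lists the pseudogenes Gpx4-ps1 and Gpx4-ps2, not analysed here, and whether they share reads with Gpx4 was not tested.

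Gpx8 (gene 69590, chromosome 13 at 113042757 to 113046430, minus strand), the transmembrane enzyme of the endoplasmic reticulum, rose in both lines. The libraries read 8.23 and 10.5 CPM in PBS, 32.7 and 29.1 CPM in I80, and 34.4 and 35.8 CPM in DI150. Treated and PBS libraries did not overlap. The rise was 3.31-fold in I80 (1.68 ± 0.13 SE on the log2 scale, limma adjusted p = 2.06e-05) and 3.75-fold in DI150 (1.86 ± 0.13 SE, limma adjusted p = 1.08e-05). DI150 exceeded I80 by 0.18 on the log2 scale, with a 95% interval of -0.13 to 0.49 (limma adjusted p = 0.303). The gene lies inside the span of Cdc20b on the opposite strand. Cdc20b had 0 reads in every library and shares 0 exon bases with Gpx8.

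**Figure D2:**
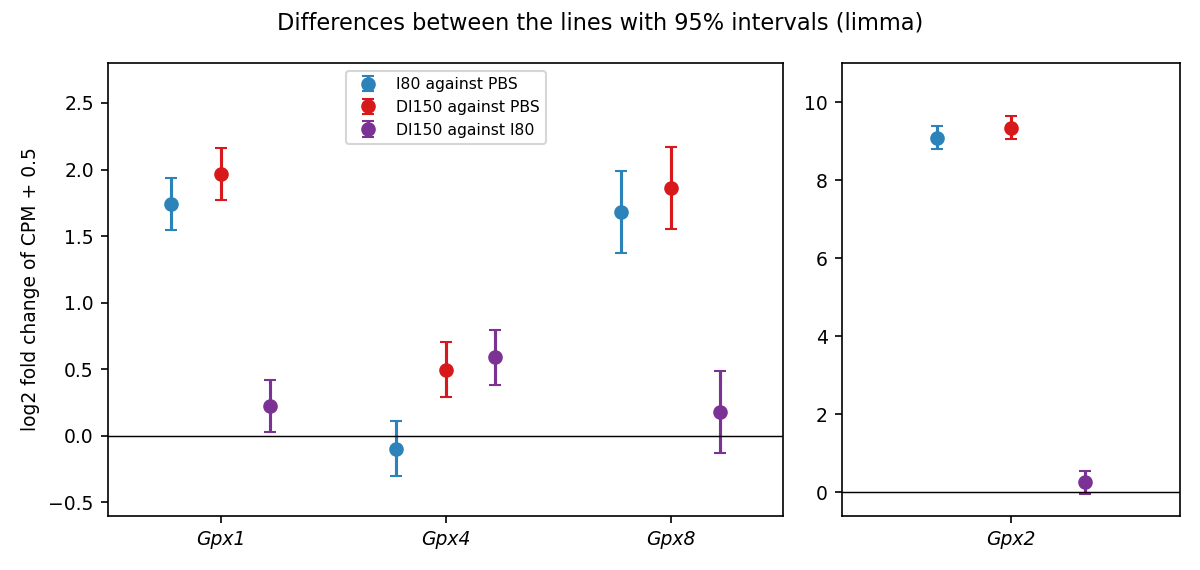
log2 fold changes of CPM + 0.5 for the 4 tested members in the 3 comparisons, as points with 95% limma intervals, with Gpx2 on an axis of its own. Gpx1, Gpx2 and Gpx8 lie above 0 in both comparisons with PBS, and Gpx4 lies above 0 in the comparisons that include DI150.

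Gpx3 (gene 14778, chromosome 11 at 54902854 to 54910387, plus strand) was at the limit of detection. It had 0 and 3 reads in PBS, 3 and 4 reads in I80 and 0 reads in both DI150 libraries. The pooled I80 to PBS ratio of reads was 2.40, with an exact 95% interval of 0.548 to 14.4 that covers counting error alone. The absence of reads in DI150 allows up to 0.143 and 0.114 CPM in its libraries, so a difference was not detectable at this depth. Gpx7 (gene 67305, chromosome 4 at 108400217 to 108406713, minus strand), the soluble counterpart of Gpx8 in the endoplasmic reticulum, had 0 reads in all 6 libraries. A count of 0 allows a level of up to 0.113 to 0.143 CPM, depending on the library. Gpx5 and Gpx6, the remaining mouse family genes, also had 0 reads in every library.

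The order of the groups was PBS, I80, DI150 for Gpx1, Gpx2 and Gpx8. The step from I80 to DI150 did not pass in any of these 3 in the limma fit of all 6 libraries. For Gpx4 the order was I80, PBS, DI150, and the step from I80 to PBS did not pass. The comparisons of I80 and DI150 with PBS share the PBS libraries, so their values are not independent of each other.

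The make-up of the family changed with these moves. Levels of different genes were compared per kilobase of the principal GENCODE transcript, whose length ranged from 959 bases in Gpx4 to 1594 bases in Gpx3. In PBS, Gpx1 stood at 167 ± 13.1 CPM per kilobase (SD, n = 2), Gpx4 at 40.2 ± 2.37, Gpx8 at 8.97 ± 1.52 and Gpx2 at 1.09 ± 0.305. Gpx1 was thus 121 and 203 times the level of Gpx2 in the PBS libraries on this scale. In I80, Gpx2 led at 839 ± 52.0 CPM per kilobase, followed by Gpx1 at 561 ± 45.7, Gpx4 at 37.6 ± 1.78 and Gpx8 at 29.7 ± 2.44. In DI150 the levels were 998 ± 33.8 for Gpx2, 654 ± 14.5 for Gpx1, 56.8 ± 3.35 for Gpx4 and 33.6 ± 0.953 CPM per kilobase for Gpx8.

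The ratio of Gpx2 to Gpx1 per kilobase was close in all 4 treated libraries, from 1.48 to 1.54. Gpx1 made up 76.8% and 77.0% of the family's summed CPM per kilobase in PBS, and 37.4% to 38.6% in the treated libraries. Gpx2 made up 0.633% and 0.380% in PBS and 56.9% to 57.6% in the treated libraries. The share of Gpx4 was 18.7% and 18.2% in PBS against 2.53% to 3.46% in the treated libraries, although its own level did not fall by the test. Summed over the 6 genes, the level was 216 and 241 CPM in PBS, 1489 and 1636 CPM in I80, and 1889 and 1822 CPM in DI150. Group means of this sum were 6.84 times the PBS value in I80 and 8.12 times in DI150.

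**Figure D3:**
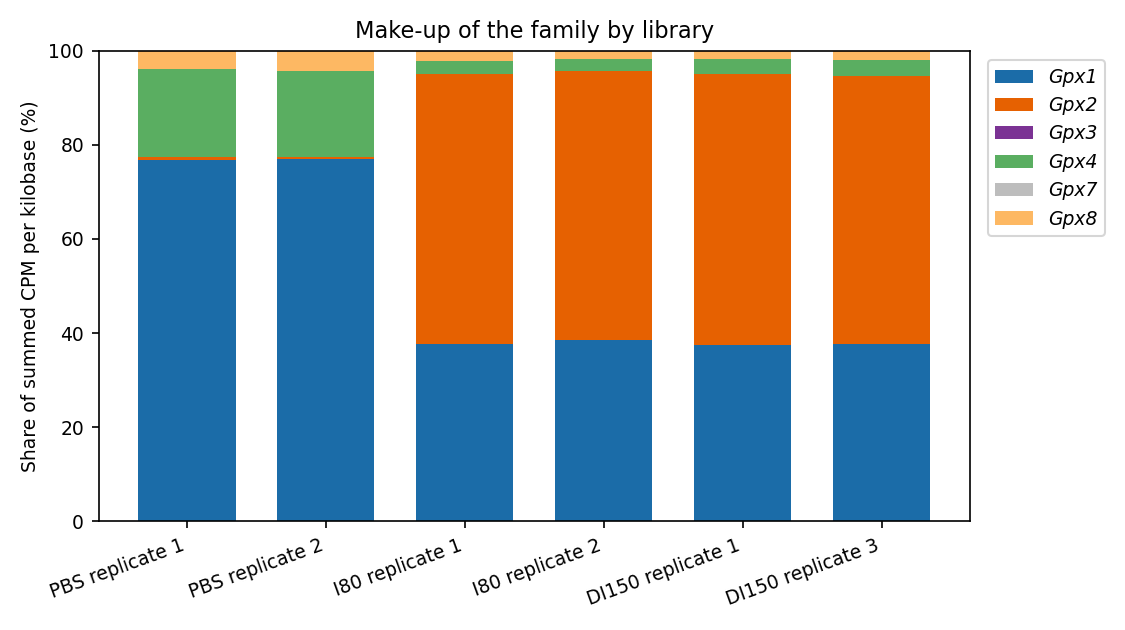
Share of each gene in the summed CPM per kilobase of the 6 glutathione peroxidases, in percent, as stacked bars for the 6 libraries. Gpx1 fills 76.8% and 77.0% of the PBS bars, and Gpx2 fills 56.9% to 57.6% of the 4 treated bars.

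The tested genes nearest to Gpx1, Gpx2 and Gpx8 had smaller folds over PBS than the member they flank, while Sbno2 beside Gpx4 was, like Gpx4, called higher in DI150 than in PBS and in I80. Rab15, a small GTPase gene 2406 bases from Gpx2, rose from 195 ± 25.7 to 498 ± 14.6 CPM in I80, 2.56-fold, and to 507 ± 47.6 CPM in DI150, 2.60-fold. Churc1, 9155 bases away on the other side, rose 1.58-fold and 1.84-fold (limma called both genes in both lines). Beside Gpx1, Rhoa and Usp4 lie 1137 and 6222 bases away. Rhoa stood at 229.9 ± 9.06, 211 ± 4.64 and 215 ± 2.41 CPM and Usp4 at 181 ± 3.23, 183 ± 1.37 and 193 ± 4.27 CPM in PBS, I80 and DI150, and neither was called in any comparison. Sbno2 begins 553 bases beyond Gpx4. It was 1.52-fold higher in DI150 than in PBS (limma adjusted p = 0.000514) and 1.34-fold higher than in I80 (limma adjusted p = 0.00731), while I80 against PBS did not pass (limma adjusted p = 0.0909). Polr2e, on the other side of Gpx4, stood at 120.5 ± 4.34, 92.1 ± 5.13 and 105 ± 4.71 CPM and was called lower than PBS in both lines (limma adjusted p = 0.00228 and 0.0489). The nearest tested genes to Gpx8 are farther off, Ccno at 51979 bases and Snx18 at 545749 bases. Ccno stood at 0.550, 1.12 and 1.59 CPM and Snx18 at 95.4, 84.8 and 75.4 CPM in PBS, I80 and DI150. Ccno was called higher in both lines (limma adjusted p = 0.0455 and 0.00753), but reached the minimum for testing only through its levels there. Snx18 was called lower in DI150 (limma adjusted p = 0.00372) and not in I80 (limma adjusted p = 0.0662). Hint1 and Tnip1 flank Gpx3 at 32348 and 400 bases, and Coa7 and Tut4 flank Gpx7 at 59499 and 52697 bases. The levels of these 4 genes in PBS ran from 17.1 CPM in Coa7 to 363 CPM in Hint1, beside members with few or no reads. Tut4 rose 3.32-fold in I80 and 1.74-fold in DI150 (limma called both), while Gpx7 had 0 reads throughout.

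Patterns across the 6 libraries were compared with those of 9819 tested genes, as the root mean square distance between centred log2(CPM + 0.5) values. These genes had a mean of 5 CPM or more. Genes with predicted names, such as Gm numbers, Rik symbols and accessions, were left out. The nearest to Gpx1 were Creg1 (distance 0.061), Hk1 (0.061) and Map4k3 (0.0689). Hk1, which encodes a hexokinase, stood at 327 ± 23.5, 1020.1 ± 19.8 and 1187 ± 18.9 CPM in PBS, I80 and DI150. The nearest to Gpx2 were farther away, with Col27a1 at 0.415, Gsta3 at 0.748 and Olfml3 at 0.847. Gpx4 was nearest to Pex2 (0.0331), Evi5l (0.0386) and Ocln (0.0434). Pex2, a gene of peroxisome assembly, stood at 49.6 ± 1.88, 45.7 ± 1.52 and 71.1 ± 1.29 CPM. Gpx8 was nearest to Rap1gap2 (0.0484), Dock8 (0.0667) and Alcam (0.0686). With 3 groups, many genes can come close to any such pattern.

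Glutathione supply, the substrate side of the reaction, was covered by a list of 13 genes of which 9 were tested. The list goes beyond supply, as it holds genes of glutathione breakdown, among them Chac1, Chac2 and Ggct. In I80, 5 rose and 0 fell, and in DI150, 5 rose and 2 fell (limma). Chac2 and Ggct are among the rises in both lines, and Chac1 is among the falls in DI150. As a background for this and each list below, 66.4% of all tested genes were called in I80 (32.3% higher, 34.2% lower) and 68.7% in DI150 (32.7% higher, 36.1% lower). The tested genes of the glutathione list had a median log2 fold change of 0.77 in I80 and 0.54 in DI150, against -0.0020 and -0.032 over all tested genes. Gclc, which encodes the catalytic subunit of glutamate-cysteine ligase, rose from 81.2 ± 5.63 to 227 ± 15.98 CPM in I80 and 230.3 ± 8.85 CPM in DI150. Slc7a11, the cystine carrier, rose from 20.9 ± 1.36 to 115 ± 4.63 and 87.7 ± 20.3 CPM. Gsr, the reductase that recycles glutathione, stood at 261 ± 21.4, 276 ± 17.9 and 259 ± 13.8 CPM (limma adjusted p = 0.438 in I80 and 0.920 in DI150). Gss, the glutathione synthetase, named here after its values were seen, was not called in I80 (limma adjusted p = 0.0606) and fell 1.26-fold in DI150 (limma adjusted p = 0.0112), so the list did not move as 1 group.

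All 10 genes of NADPH supply were tested. In I80, 5 rose and 5 fell, and in DI150, 5 rose and 3 fell, with medians of -0.13 and 0.23. G6pdx, the entry enzyme of the pentose phosphate pathway, rose 2.88-fold in I80 and 1.51-fold in DI150, to 708 ± 3.22 and 372 ± 23.5 CPM. Pgd, the next NADPH-forming enzyme of that pathway, rose 1.40-fold and 1.60-fold. Me1, the cytosolic malic enzyme, rose 2.74-fold and 2.35-fold. Among the genes that fell, named after their values were seen, Idh2, the mitochondrial NADP-dependent isocitrate dehydrogenase, fell 13.2-fold and 14.3-fold. Its cytosolic counterpart Idh1 fell 2.15-fold and 2.31-fold (limma called both genes in both lines).

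Among 12 genes listed for other peroxide removal, 7 rose and 1 fell in I80 and 8 rose and 3 fell in DI150, with medians of 0.44 and 0.55. The list goes beyond enzymes that act on peroxide, as it holds Txn1, Txn2, Txnrd1, Txnrd2 and Srxn1, which serve the peroxiredoxins. Txnrd1, Txnrd2 and Srxn1 are among the rises in both lines. Calls in either direction made up 66.4% and 68.7% of all tested genes. Catalase (Cat) rose 4.55-fold and 11.3-fold, and it was 2.50-fold higher in DI150 than in I80 (limma adjusted p = 6.25e-05). The ratio of DI150 to I80 was 1.17 for Gpx1, 1.19 for Gpx2, 1.51 for Gpx4 and 1.13 for Gpx8 in the same libraries. The peroxiredoxin Prdx1 rose from 561 ± 3.70 to 2139.7 ± 115 CPM in I80 and to 1414 ± 96.2 CPM in DI150. Txnrd1, the cytosolic thioredoxin reductase and itself a selenoprotein, rose 2.50-fold and 2.88-fold. The peroxiredoxin Prdx2, named after its values were seen, fell 2.35-fold and 2.03-fold (limma), and Prdx4 and Txn2 fell in DI150.

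Selenocysteine insertion serves Gpx1 to Gpx4. Of 9 genes listed for it, all tested, 5 rose and 3 fell in I80 and 1 rose and 3 fell in DI150, with medians of 0.27 and 0.01. The list goes beyond the insertion step, as it holds Scly and Lrp8. Lrp8 is among the rises in I80, and Scly is among the falls in both lines. Secisbp2, which binds the selenocysteine signal of the mRNA, stood at 20.4 ± 0.0937, 24.7 ± 0.542 and 21.5 ± 0.248 CPM, a rise in I80 (limma adjusted p = 0.0289) and no call in DI150 (limma adjusted p = 0.484). Eefsec, the elongation factor that delivers selenocysteine, fell from 42.6 ± 0.0842 to 32.1 ± 1.67 and 25.1 ± 0.217 CPM. Sephs2, which makes the selenium donor, stood at 128 ± 10.7, 155 ± 6.39 and 113 ± 9.57 CPM, with a rise in I80 (limma adjusted p = 0.0257) and none called in DI150 (limma adjusted p = 0.108).

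Among 20 other selenoprotein genes, 16 were tested. In I80, 6 rose and 6 fell, and in DI150, 4 rose and 3 fell, with medians of -0.19 and -0.02. Selenow, a small selenoprotein, fell from 17.2 ± 0.560 to 12.4 ± 1.02 CPM in I80 and stood at 18.4 ± 0.70 CPM in DI150. Selenop, the plasma carrier of selenium, was under the level for testing, at 1.54 and 2.91 CPM in PBS, 0.312 and 0.165 CPM in I80 and 0 reads in DI150. Txnrd1, Txnrd2 and Sephs2 belong to this list and to a list above.

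Genes of lipid peroxidation and its control are the setting of Gpx4. Of 16, 13 were tested, with 5 higher and 5 lower in I80 and 4 higher and 6 lower in DI150 (medians -0.13 and -0.09). Acsl4, which loads membranes with oxidizable fatty acids, rose 2.19-fold in I80, from 269 ± 46.7 to 591 ± 3.78 CPM, and stood at 253 ± 23.7 CPM in DI150 (limma adjusted p = 0.563 against PBS). Acsl4 and Gpx4 thus stood in opposite order in the treated lines, and both differences between them passed (limma adjusted p = 0.000285 for Acsl4). Lpcat3, which inserts such fatty acids into phospholipids, fell 1.202-fold and 1.15-fold. Aifm2, also called FSP1, a suppressor of ferroptosis apart from Gpx4, fell from 21.7 ± 2.48 to 17.2 ± 0.924 CPM in I80 and was at 20.4 ± 1.499 CPM in DI150.

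Oxidative folding in the endoplasmic reticulum is the setting of Gpx7 and Gpx8. All 12 genes were tested, with 4 higher and 4 lower in I80 and 3 higher and 3 lower in DI150 (medians 0.066 and -0.00058). Ero1a, an oxidase that produces H2O2 there, rose from 56.8 ± 6.74 to 149.5 ± 9.11 CPM in I80 and 220.5 ± 32.9 CPM in DI150. P4hb, the disulfide isomerase that it oxidizes, fell 1.85-fold and 1.99-fold. Prdx4, the peroxiredoxin of that compartment, stood at 82.0 ± 6.96 and 82.7 ± 1.62 CPM in PBS and I80, and fell to 44.2 ± 0.834 CPM in DI150. Gpx8 and Ero1a thus rose in both lines, as did the oxidase genes Qsox1 and Qsox2. Ero1b, the other ERO1 oxidase gene, fell 1.72-fold in I80 (limma adjusted p = 0.00369) and was not called in DI150 (limma adjusted p = 0.695). Qsox1, Qsox2 and Ero1b were named after their values were seen. The members of the list as a whole moved in both directions.

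The regulators of the antioxidant response element, a promoter sequence through which NRF2 acts, number 6. In I80, 5 rose and 0 fell, and in DI150, 4 rose and 1 fell, with medians of 0.51 and 0.29, beside 66.4% and 68.7% of all tested genes called in either direction. Nfe2l2, the gene of NRF2, rose from 269 ± 8.89 to 451 ± 8.52 CPM in I80 and 325 ± 6.11 CPM in DI150. Keap1, which directs NRF2 to degradation, rose 1.71-fold and 1.24-fold. Bach1, a repressor at the same element, rose from 105 ± 0.573 to 121 ± 4.85 CPM in I80 and fell to 92.1 ± 1.65 CPM in DI150.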

How the data were processed

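Total RNA was depleted of ribosomal RNA and sequenced as single 81-base reads, and a stranded kit is among those described, per the labels' protocols. The submitters' processing notes name STAR and mm10 without a version. Not given in the sources used here are the counter, its annotation, its use of strand and its handling of reads with several matches. One deposited table holds the authors' CPM for 24454 Entrez gene numbers, each column summing to 1000000. All 146724 values (100.0%) were whole multiples of 1 read, within 1e-06 reads, which gave recovered reads. RefSeq's GRCm38.p6 table matched 24374 gene numbers (99.67%). A DI150 column is numbered 3, a number no label carries, and served as a DI150 library.

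The test was limma 3.58.1 (R 4.3.3, trended eBayes, two-sided, Benjamini-Hochberg adjustment) on log2(CPM + 0.5) for the 11428 genes whose mean reached 1 CPM. The 3 groups were fitted together, with 3 residual and 4.52 prior degrees of freedom, and called means an adjusted p under 0.05. Folds are ratios of mean CPM. The floor for a count of 0 is 3 reads. Reads are not independent molecules, so such floors and the read intervals hold counting error and nothing else. Alternatives were pseudocounts of 0.1 and 1 CPM, no filter, a filter at 5 CPM, TMM and median-of-ratios scaling, fits of the libraries compared, a replicate block, edgeR 4.0.16, DESeq2 1.42.0, and leaving out each library. The limma script was tested on simulated counts.

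The 6 members and the 8 pathway lists were chosen with earlier results of these data known. Named genes are the members, the first 3 genes of each list as written, the 3 genes nearest in pattern to each tested member, and the nearest tested gene on either side. Other genes of the pathway lists were named after their values were seen. Promoters come from RefSeq, and coding sequences and transcript lengths from GENCODE M21, aligned as proteins with Biopython 1.88.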

Additional observations from a re-analysis of the deposited data

Results flagged for a closer look

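Gpx4 was set apart because its difference from PBS was not the same in the treated lines. The flag was set by the limma call in DI150 against I80, so that call is no separate test of it. The log2 value was 0.59 (95% interval 0.38 to 0.80, limma adjusted p = 0.00174). Both DI150 libraries (52.2 and 56.8 CPM) exceeded both I80 libraries (34.8 and 37.2 CPM). The adjusted p stayed below 0.05 in each of the 16 alternatives, from 1.06e-06 to 0.026.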

How the results depend on the processing

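Across 16 alternatives, 187 of 192 differences of single members kept their direction and their side of the threshold, and 0 reversed. The counts of members called against PBS, 3 higher in I80 and 4 higher in DI150, were the same in each alternative. The count higher in DI150 than in I80 was 1 as reported. It was 2 in fits of the 4 libraries compared, where Gpx2 joined Gpx4, and 3 with DESeq2, where Gpx1 and Gpx2 joined. With libraries left out it ranged from 1 to 2, the higher count coming without PBS replicate 1 and without PBS replicate 2. In these fits a group with 1 library is assumed to vary like the others.

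With the replicate number as a block, the counts were again 3, 4 and 1. The deviations of same-numbered libraries correlated at 0.0228 between PBS and I80, -0.0551 between PBS and DI150 and 0.213 between I80 and DI150, and the libraries share a number rather than a stated origin. DI150 replicate 3 is the only library with its number, so its block absorbs it. The block fits that involve DI150 therefore rest on DI150 replicate 1 and cannot check a pairing of its libraries. Over all genes, the calls in DI150 against I80 were 2503 higher and 2505 lower in the main fit. Leaving out I80 replicate 1 gave 1295 and 1246, I80 replicate 2 gave 1300 and 1187, DI150 replicate 1 gave 1561 and 1451, and DI150 replicate 3 gave 1547 and 1662. Depth limits Gpx3 and Gpx7, whose levels lie near or under 3 reads per library.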
